A study of Homo sapiens with 32 samples.

Results

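The genes described here are the human genes named ZNF with a number, most of which code for zinc-finger proteins, restricted to those that were well measured: a mean of at least 100 reads over the 32 libraries of the study. Each gene was represented by the transcript entry with most reads. Of 465 ZNF genes matched to an entry, 71 reached that mean, out of 6260 among all 18829 named genes. The members were chosen by their total reads, so levels are given as a description. The members just inside the limit were ZNF165 with a mean of 102.56 reads, ZNF292 with 101.34 and ZNF326 with 100.53. The genes just outside it were ZNF398 with 99.97, ZNF317 with 98.81 and ZNF672 and ZNF692 with 98.69 each. The members with most reads were ZNF207 with a mean of 1098 reads, ZNF428 with 778 and ZNF503 with 735. ZNF165, ZNF526, ZNF480, ZNF185, ZNF292 and ZNF326 averaged at least 100 reads in only 1 of the stressed and unstressed states, so their entry depended partly on the state in which they were higher.

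The cells were HCT116, a colorectal cancer line of human origin long kept in culture, with a doxycycline-inducible OsTIR1, a plant protein that in the presence of auxin directs degron-tagged proteins to the proteasome. In tagged cells the endogenous IGF2BP3, an RNA-binding protein, carried the mAID degron on both alleles, and parental cells had OsTIR1 without the tag. The 8 groups of 4 libraries were every combination of tagged or parental cells, stressed or unstressed state, and auxin or vehicle. Stress was 5 µg/mL tunicamycin, a blocker of N-glycosylation that causes endoplasmic reticulum (ER) stress, for 5 h, auxin was 500 µM for 9 h and DMSO was the vehicle. Every group, controls included, received 200 ng/mL doxycycline for 24 h and the uridine analogue s4U at 250 µM for 2 h. In this assay, SLAM-seq, s4U is read as a T-to-C conversion. A read with a conversion ("labelled read") is taken to come from RNA made during the labelling period. As every library received s4U, the level of conversions without it was not measured. The degron acts on the protein, so IGF2BP3 mRNA does not check its removal. Removal was not measured in the data used here. Each library came from 1 well, and p-values measure the spread between wells.

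Most zinc-finger proteins of this name bind DNA through arrays of C2H2 fingers, short folds held by a zinc ion. Many carry a KRAB domain, which recruits the co-repressor TRIM28 and with it histone methylation and heterochromatin proteins, and others carry a SCAN domain, through which they pair. Some members do other work, such as ribosome quality control, ribosome assembly, spindle assembly or RNA binding.

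Libraries held 5845 to 30583 reads in the 71 genes, and 0.987 M to 6.982 M (M, mega) reads in all named genes. Replicate 1 of stressed, auxin-treated parental cells stood apart: it had the fewest reads, 15.1 covered T positions per read against 20.3 to 24.1 in the other 31 libraries, 8.88% labelled reads against 10.3% to 13.5%, and 0.592% of its reads in the 71 genes against 0.421% to 0.490%. The counts of calls are given with and without it. The shares of all genes called come from the fit with all 32 libraries, also where a count without it stands beside them. IGF2BP3 mRNA ranged from 130 to 235 CPM over all libraries. DDIT3, the transcription factor CHOP, averaged 838 to 864 CPM (reads scaled to library size) in the stressed groups and 21.3 to 25.1 CPM in the unstressed groups. The epithelial markers EPCAM, KRT8, KRT18, KRT19, CDH1 and CLDN4 were detected, VIL1 was at 0 and LGALS4 near 0. Among markers of other cell types, PTPRC, CD3E and COL3A1 were at 0 and COL1A1 averaged 27.9 CPM.

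By position, 18 of the 71 members (25.4%) lay on chromosome 19, against 6.8% of the genes with at least 100 reads that could be placed and 50.3% of all 465 ZNF genes matched. A search of the coding sequence found the core of a KRAB domain in 18 members. The search pattern is strict and misses diverged domains. Promoter sequences from RefSeq (GRCh38.p14) were held for 60 members, and for ZNF165, ZNF395, ZNF462, ZNF480, ZNF618, ZNF621, ZNF696, ZNF7, ZNF706, ZNF721 and ZNF76 none is shown. The stress-called members with the largest changes in total reads each way for which a promoter was held are given here as the 250 bases before the start of transcription on the gene's own strand, to set members that rose beside members that fell. ZNF526 lies on the plus strand of chromosome 19 from 42220312 to 42228201, ZNF791 on the plus strand of chromosome 19 from 12610920 to 12633834, ZNF503 on the minus strand of chromosome 10 from 75279725 to 75401916, and ZNF581 on the plus strand of chromosome 19 from 55635003 to 55645623. The windows are chr19:42220062-42220311 for ZNF526, chr19:12610670-12610919 for ZNF791, chr10:75401917-75402166 for ZNF503, which has 2 windows in the table, and chr19:55643399-55643648 for ZNF581, which lies inside that gene's span. Capitals mark CCAAT on either strand, the first part of the ER stress response element.
ZNF526: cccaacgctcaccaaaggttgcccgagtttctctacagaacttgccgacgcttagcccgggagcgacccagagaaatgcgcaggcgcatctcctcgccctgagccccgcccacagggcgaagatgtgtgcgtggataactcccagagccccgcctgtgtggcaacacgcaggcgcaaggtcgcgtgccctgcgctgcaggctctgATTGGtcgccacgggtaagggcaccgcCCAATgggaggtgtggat
ZNF791: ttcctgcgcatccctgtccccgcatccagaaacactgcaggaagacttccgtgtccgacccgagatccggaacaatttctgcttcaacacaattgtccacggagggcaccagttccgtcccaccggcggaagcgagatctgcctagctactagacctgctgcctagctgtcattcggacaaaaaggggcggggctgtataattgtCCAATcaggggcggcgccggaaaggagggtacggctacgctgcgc
ZNF503: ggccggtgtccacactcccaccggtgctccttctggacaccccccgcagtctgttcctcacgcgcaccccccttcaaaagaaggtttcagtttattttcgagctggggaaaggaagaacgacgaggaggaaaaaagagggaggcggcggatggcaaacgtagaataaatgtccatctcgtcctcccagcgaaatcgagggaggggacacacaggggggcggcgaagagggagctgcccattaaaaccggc
ZNF581: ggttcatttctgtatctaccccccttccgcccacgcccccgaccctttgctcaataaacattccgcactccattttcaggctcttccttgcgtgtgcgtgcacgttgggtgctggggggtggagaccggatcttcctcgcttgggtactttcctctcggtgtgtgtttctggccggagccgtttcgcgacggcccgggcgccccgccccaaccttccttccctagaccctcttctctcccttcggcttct
CCAAT or its complement ATTGG stood 2 times in the ZNF526 window and 1 time in the ZNF791 window, and in neither of the others. This motif was picked after the values were seen. It was found in 7 of 14 windows of members that rose with stress, in 1 of 6 windows of members that fell, in 25 of 81 windows of all members and in 11240 of all 35116 promoters in the table. These are counts of windows, and some genes have more than 1: the 14 windows belong to 11 members and the 81 to 60. The complete ER stress response element was searched on both strands of 300 letters from 250 before to 50 after the start, and was found in 0 of the 60 members and in 0.077% of all promoters. TGATGNAA, the core of the C/EBP-ATF response element, was in 0 members and 3.617% of promoters, and TGACGTGG, an unfolded protein response element, in 0 members and 0.729%. The cyclic AMP response element TGACGTCA was in 5 members (ZNF330, ZNF335, ZNF511, ZNF562 and ZNF593) and in 1.848% of promoters. The GC content of the windows had a median of 64.7% in the members and 58.7% over all promoters.

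In unstressed vehicle-treated cells of both lines, the median labelled share of the ZNF genes was higher than that of the other genes above the same minimum of reads. The other genes were not matched on read number. The median labelled share was 33.3% of reads over the 71 members (quartiles 25.7% and 39.9%), against 14.8% over 6078 other genes with a mean of at least 100 reads (quartiles 9.41% and 22.8%). Counted as conversions per covered T, which allows for base composition, the medians were 2.97% in the members and 1.22% in the other genes. No test over the list was made. The highest pooled shares were those of ZNF503 (67.3%), a transcriptional repressor of development, ZNF12 (66.9%), a KRAB protein, ZNF165 (65.9%), a SCAN-domain gene known as a cancer-testis antigen, ZNF292 (62.2%), a large zinc-finger protein linked to neurodevelopmental disorder, and ZNF281 (61.6%), a regulator linked to stem-cell and mesenchymal programmes. Over the 8 libraries ZNF503 ranged from 62.2% to 69.6% and ZNF165 from 47.8% to 81.8%. ZNF165 rests on 182 reads in all. The lowest shares were those of ZNF185 (4.51%), an actin-associated LIM-domain protein, ZNF428 (7.44%), ZNF511 (9.31%), ZNF580 (11.01%), ZNF787 (12.4%) and ZNF664 (12.6%). ZNF207, which helps the checkpoint protein BUB3 load at kinetochores, stood at 13.8%, and ZNF593, a factor of large-subunit ribosome assembly, at 13.7%.

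Medians by kind of member are given as a description, and their ranges overlapped. Members with a KRAB core had a median of 36.6% (18 genes) and members without it 30.7% (53 genes). The 11 members listed as sequence-specific regulators or chromatin partners had 36.9%, and the 10 with roles in RNA, ribosome, spindle, SUMO or cytoskeleton biology had 27.1%. Other zinc-finger genes with at least 100 reads, grouped by symbol whatever the type of finger, lay near the members. Medians were 33.7% over 13 ZBTB genes, 35.6% over 5 KLF genes and 31.9% over 2 ZSCAN or ZKSCAN genes. The 4 genes with symbols that begin with ZFP, ZFP36L1 and ZFP36L2 among them, had 40.8%. The 24 genes of the co-repressor machinery through which KRAB proteins act had a median of 16.8%.

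The labelled share of the members' summed reads was lower with tunicamycin in every pair of groups. In bulk samples a change in all cells and a change in the mix of cells cannot be told apart. In tagged cells with auxin it was 22.5% ± 1.35 in stressed and 29.7% ± 1.98 in unstressed wells, and in tagged cells with vehicle 24.9% ± 1.06 and 30.9% ± 2.18 (SD, n = 4 each). In parental cells with auxin it was 21.9% ± 3.04 in stressed and 30.0% ± 1.27 in unstressed wells, or 23.4% ± 0.516 in stressed wells (n = 3) without the library that stood apart, and in parental cells with vehicle 24.5% ± 0.927 and 31.5% ± 0.775. The stressed and unstressed wells did not overlap in any of the 4 pairs. The share over all genes was lower with stress as well, at 11.1%, 11.9%, 10.9% and 11.8% in the stressed groups in the same order and 12.1%, 12.6%, 12.7% and 12.9% in the unstressed groups.

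**Figure D1:**
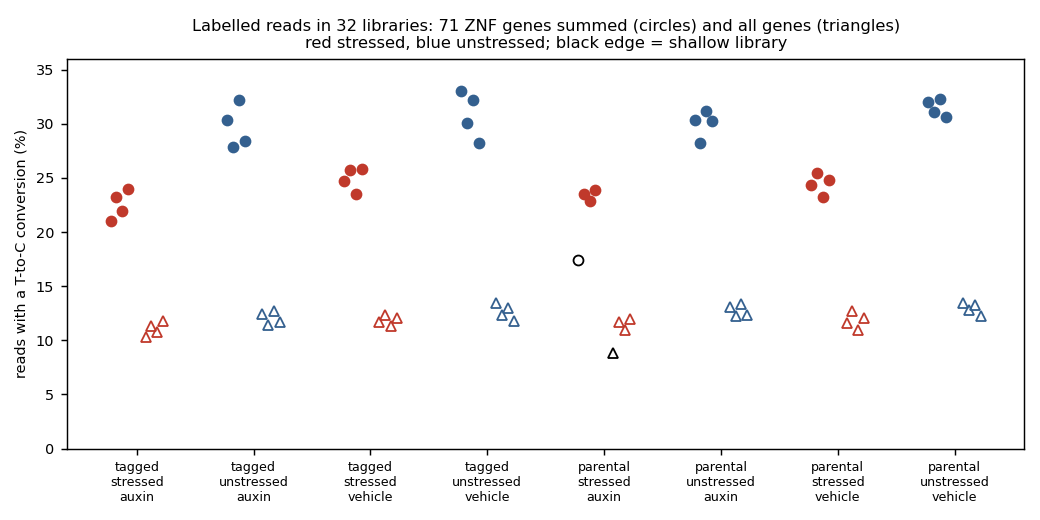
Share of reads with a T-to-C conversion (%, vertical axis) in each of the 32 libraries, by group (horizontal axis), for the summed reads of the 71 ZNF genes (circles) and for all genes (triangles). The circles of stressed wells lie below those of unstressed wells in every pair, and the black-edged library of stressed, auxin-treated parental cells is the lowest of all at 17.4%.

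In total reads, tunicamycin changed 23 of the 71 members when averaged over the 4 pairs of groups: 14 rose and 9 fell (edgeR's quasi-likelihood test, Benjamini-Hochberg adjusted p under 0.05 over all 11186 genes tested). Over all genes 21.9% were called, 11.1% higher and 10.8% lower. All genes tested include many under a mean of 100 reads, and they were not matched to the members on read number. The median log2 change was 0.04 over the members and 0.01 over all genes. ZNF165 rose most and ZNF503 fell most. Of the members that reached 100 reads in both states, only ZNF503 was called in all 4 pairs taken singly, with all libraries in the fit. When the library that stood apart was left out, ZNF770 was called in all 4 pairs as well. ZNF165 was called in all 4 pairs too but entered through the stressed state, so its rise and its calls are a description. Without the library that stood apart 32 members were called, 17 higher and 15 lower: the 23 were kept, and ZNF106, ZNF131, ZNF264, ZNF275, ZNF451, ZNF622, ZNF629, ZNF652 and ZNF689 were added. A member that reached 100 reads in only 1 state had to be higher in that state to enter. Among the 65 members that reached it in both states 20 were called, 12 higher and 8 lower.

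ZNF165 ranged from 25.4 CPM over a median of 38.6 to 62.5 CPM in the 16 stressed libraries, against 5.09, 8.19 and 13.7 CPM in the 16 unstressed libraries. No stressed library fell to the level of an unstressed library, and the log2 change was 2.31 ± 0.12 (SE). With a mean of 173.9 reads in stressed and 31.2 in unstressed libraries it entered the set through the stressed state, so this change is a description, and no p is given. Its region counted here spans 93 bases, and the gene lies on chromosome 6 from 28080282 to 28089563. In tagged cells with auxin it stood at 44.0, 45.4, 62.4 and 52.3 CPM in stressed wells and 13.7, 10.3, 11.97 and 6.05 CPM in unstressed wells. Its labelled reads rose by a like amount, 2.23 ± 0.12 on the log2 scale.

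ZNF503 fell in every pair. It ranged from 105 CPM over a median of 121 to 154 CPM in the stressed libraries, against 223, 268 and 339.7 CPM in the unstressed libraries, and no libraries of the 2 states overlapped. Its log2 change was -1.13 ± 0.04 (edgeR adjusted p = 1.15e-19). In tagged cells with auxin it stood at 120.0, 129.6, 129.1 and 139.0 CPM in stressed wells and 308, 311, 333 and 283 CPM in unstressed wells. Labelled reads fell by 1.14 ± 0.06 on the log2 scale (edgeR adjusted p = 2.69e-27). As background, ZNF503 belongs, with ZNF703, to a small family of transcriptional repressors.

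The other members that rose by the largest amounts were ZNF526, ZNF791 and ZNF430. ZNF526 ranged over 29.8, 36.4 and 168 CPM (lowest, median and highest) in stressed libraries and 14.9, 24.6 and 36.6 CPM in unstressed libraries, with stressed wells above all unstressed wells in each of the 4 pairs. It too reached 100 reads in the stressed state only, so its change is a description. ZNF791, a KRAB gene, ranged over 41.9, 49.4 and 250.4 CPM in stressed and 23.0, 34.0 and 58.5 CPM in unstressed libraries. ZNF430, also a KRAB gene, ranged over 40.9, 52.3 and 181 CPM in stressed and 29.7, 36.7 and 58.3 CPM in unstressed libraries. The highest stressed value of each of these genes came from the library that stood apart. Their log2 changes were 0.77 ± 0.16, 0.73 ± 0.17 and 0.53 ± 0.13 with it, and 0.58 ± 0.08, 0.51 ± 0.08 and 0.40 ± 0.08 without it. In parental cells with vehicle ZNF791 stood at 0.06 ± 0.16 without that library and was not called. The last exon of ZNF791 overlaps ZNF490 on the opposite strand.

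ZNF655, which is known to bind the signalling protein VAV, rose by 0.50 ± 0.12 on the log2 scale, or 0.35 ± 0.06 without the library that stood apart. This average does not hold for every pair: without that library ZNF655 stood at -0.0 ± 0.11 in parental cells with vehicle. ZNF770 rose by 0.41 ± 0.07, ZNF621 by 0.32 ± 0.12 (0.20 ± 0.07 without that library), ZNF410, an activator of the chromatin remodeller gene CHD4, by 0.31 ± 0.08, and ZNF12 and ZNF76 by 0.28 each. ZNF22 rose by 0.27 ± 0.08, ZNF195 and ZNF3 by 0.18 each and ZNF281 by 0.16 ± 0.05.

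Among the members that fell after ZNF503, ZNF581 ranged over 28.4, 33.7 and 100.4 CPM in stressed and 39.1, 47.8 and 68.7 CPM in unstressed libraries, the highest stressed value again being that of the library that stood apart. Its log2 change was -0.43 ± 0.11, and -0.54 ± 0.07 without that library. ZNF580 and ZNF581 are neighbours whose 3′ ends overlap CCDC106, so their reads are uncertain. ZNF480, a KRAB gene, ranged over 19.6, 26.9 and 31.8 CPM in stressed and 24.8, 36.6 and 46.0 CPM in unstressed libraries (log2 change -0.42 ± 0.07). It reached 100 reads in the unstressed state only, so its change is a description. ZNF142 ranged over 20.7, 26.7 and 49.6 CPM in stressed and 26.4, 36.5 and 55.6 CPM in unstressed libraries (-0.37 ± 0.09). Its highest stressed value came from the library that stood apart, the next being 36.2 CPM. ZNF346, which binds double-stranded RNA, fell by 0.36 ± 0.10, ZNF696 by 0.31 ± 0.06, ZNF618 by 0.30 ± 0.08, and ZNF395 and ZNF316 by 0.21 each.

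**Figure D2:**
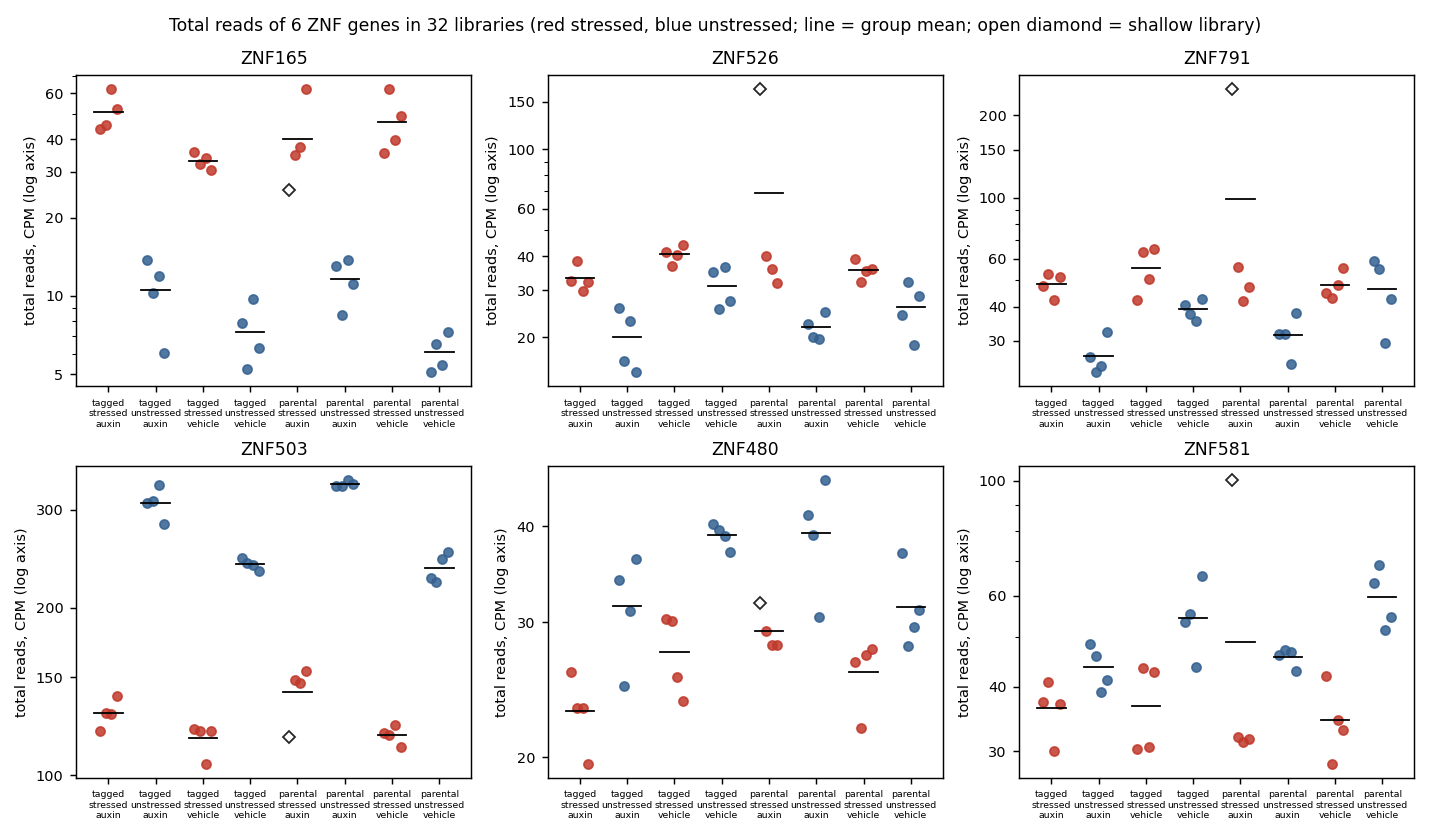
Total reads (CPM, log axis) of 6 ZNF genes in the 32 libraries by group, with stressed wells in red, unstressed wells in blue, a line at each group mean and the library that stood apart as an open diamond. ZNF165 is higher and ZNF503 lower in every stressed library than in any unstressed one, and the diamond is the highest point of ZNF526, ZNF791 and ZNF581.

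By role, members moved both ways, beside 11.1% of all genes higher and 10.8% lower. Of the 18 members with a KRAB core 6 rose and 2 fell (median log2 change 0.14), and of the 53 without it 8 rose and 7 fell (0.02). Of the 11 regulators, ZNF165, ZNF410 and ZNF281 rose and ZNF503 and ZNF395 fell. ZNF24, a SCAN protein, stood at -0.01 ± 0.04, ZNF148 at -0.11 ± 0.05, ZNF263 at 0.15 ± 0.06, ZNF687 and ZNF644 at 0.02 each and ZNF462 at -0.07 ± 0.10, none of them called. Of the 10 members with roles in RNA, ribosome, spindle, SUMO or cytoskeleton biology ZNF346 was called. ZNF598, the ubiquitin ligase that marks collided ribosomes, stood at -0.10 ± 0.08, ZNF622, a large-subunit maturation factor, at 0.18 ± 0.07, ZNF593 at 0.09 ± 0.08, ZNF207 at -0.11 ± 0.05, ZNF326, part of a complex that links transcription and splicing, at 0.17 ± 0.09, ZNF451, a SUMO ligase, at -0.23 ± 0.11, ZNF330 at -0.04 ± 0.07, ZNF706 at -0.03 ± 0.16 and ZNF185 at 0.13 ± 0.07, none of them called. ZNF451 stood at 258 CPM in the library that stood apart and at 70.96 to 103 CPM in the other stressed libraries. Without that library ZNF451 fell by 0.37 ± 0.05 and ZNF622 rose by 0.20 ± 0.07, both called.

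Of 24 genes of the co-repressor machinery, MPHOSPH8, a subunit of the HUSH silencing complex, rose in total reads (0.21 ± 0.06) and 0 genes fell, beside 11.1% of all genes higher and 10.8% lower. In labelled reads 3 of the 23 genes tested rose and 6 fell, beside 16.9% of all genes higher and 17.7% lower. Among those that fell were the KRAB co-repressor TRIM28 (-0.29 ± 0.09) and the remodeller CHD4 (-0.38 ± 0.09). Among other zinc-finger genes, grouped by symbol whatever the type of finger, KLF5, KLF6 and KLF10 rose and KLF13 fell among 5 KLF genes. ZBTB8A and ZBTB5 rose and ZBTB7A fell among 13 ZBTB genes, and ZKSCAN1 rose among 2 ZSCAN or ZKSCAN genes. Of 4 genes with symbols that begin with ZFP, ZFP36L1 rose and ZFP36L2 fell.

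**Figure D3:**
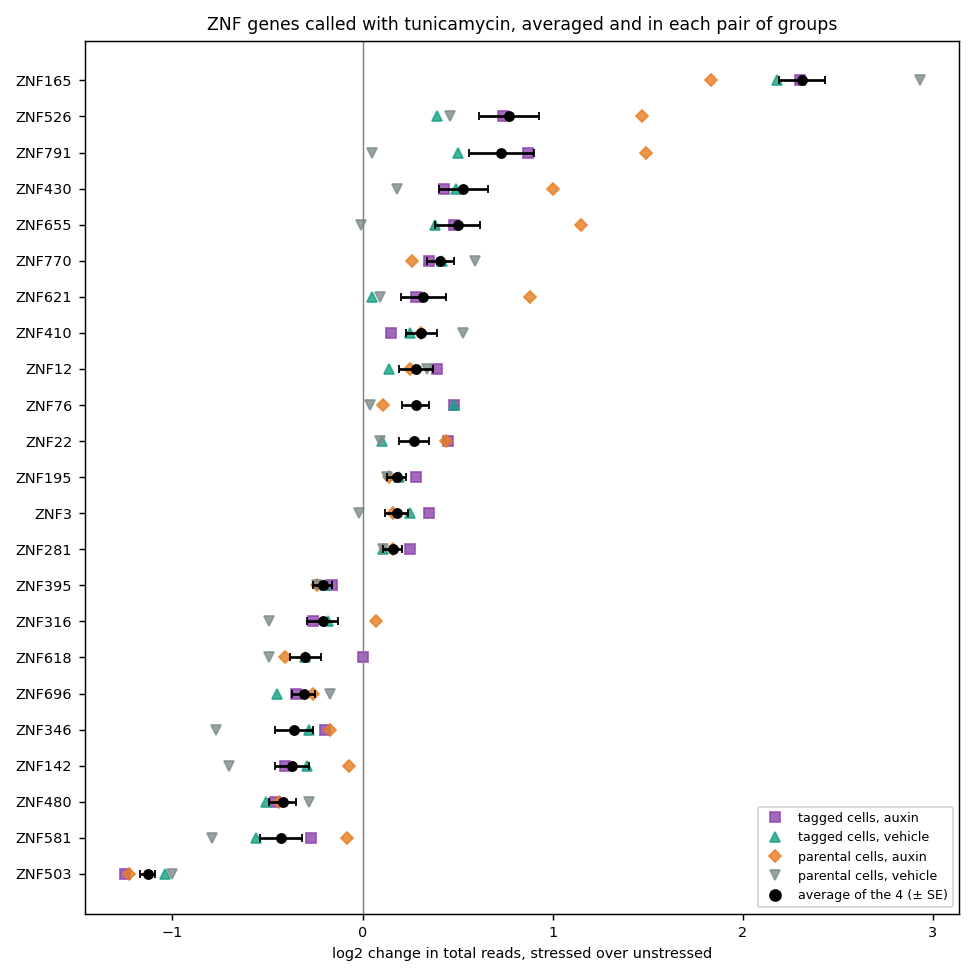
Log2 change in total reads, stressed over unstressed (horizontal axis), of the 23 ZNF genes called on average, as the average with its standard error (black) and in each pair of groups (coloured). ZNF165 lies right of 0 and ZNF503 left of 0 in all 4 pairs. In ZNF791 and ZNF655 the parental cells with auxin lie far to the right of the other pairs, through the library that stood apart. Without that library this pair had log2 changes of 0.62 in ZNF791 and 0.54 in ZNF655. In the same order of genes, tagged cells then had 0.86 and 0.48 with auxin and 0.51 and 0.39 with vehicle. Parental cells with vehicle had 0.06 and -0.0.

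Labelled reads, scaled by their own factors, were called for 22 of the 70 members tested, 9 higher and 13 lower, against 34.6% of all 8980 genes (16.9% higher, 17.7% lower). ZNF165, ZNF526, ZNF430, ZNF622, ZNF410, ZNF706, ZNF655, ZNF12 and ZNF281 rose, ZNF622 by 0.44 ± 0.11 and ZNF706 by 0.40 ± 0.13. Besides ZNF503, the largest falls were those of ZNF480 (-0.78 ± 0.15), ZNF618 (-0.71 ± 0.13), ZNF346 (-0.63 ± 0.13), ZNF696 (-0.53 ± 0.11) and ZNF142 (-0.50 ± 0.12). ZNF335 (-0.44 ± 0.14), ZNF598 (-0.36 ± 0.08), ZNF445 (-0.34 ± 0.13), a KRAB protein that maintains imprints, ZNF148 (-0.30 ± 0.08), ZNF451 (-0.29 ± 0.10) and ZNF276 (-0.26 ± 0.10) fell in labelled but were not called in total reads. Scaled by the total reads instead, 40 were called, 2 higher and 38 lower, with a median of -0.28. Without the library that stood apart 27 were called, 12 higher and 15 lower. ZNF165 and ZNF526 reached 100 reads in the stressed state only and ZNF480 in the unstressed state only, so their changes are a description. Among the 65 members that reached 100 reads in both states 19 were called, 7 higher and 12 lower.

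The labelled share of a gene, the ratio of its labelled to its other reads relative to that of the typical gene, fell for 26 members and rose for ZNF706, so 27 of 70 were called. Over the 8980 genes tested 28.2% were called, 14.7% lower and 13.5% higher. The median log2 change was -0.17 over the members and -0.06 over all genes. Among the 65 members that reached 100 reads in both states 25 were called, 24 lower and 1 higher. Not set against the typical gene, 53 members were called, all lower, with a median of -0.48 beside -0.36 over all genes. Counted as conversions per covered T and tested with limma, 10 members were called, 9 lower and 1 higher. Without the library that stood apart 29 were called, 27 lower and 2 higher. The baseline label of a gene moved with this count, and its part was not tested. Among genes under 10% labelled reads at baseline 0 of 2 members were called lower, beside 15.6% of other genes, and from 10% to 20% 0 of 9 members, beside 14% of other genes. From 20% to 30% the shares called lower were 43.8% of 16 members and 14.3% of other genes, from 30% to 40% they were 40% of 25 members and 18.3% of other genes, and from 40% up they were 50% of 18 members and 31.3% of other genes. These bins were set after the values were seen. The baseline label came from unstressed vehicle libraries that also enter the stress change, so bin and change are not independent.

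ZNF770, a C2H2 gene of chromosome 15 from 34978341 to 34988287, had the largest fall in labelled share. Its last exon overlaps the annotated gene AC114546.3 on the opposite strand. Its labelled percentage ranged over 10.6%, 16.04% and 19.4% (lowest, median and highest) in stressed libraries and 20.8%, 27.3% and 31.7% in unstressed libraries, with no overlap. Its log2 change in labelled share was -0.71 ± 0.08 (edgeR adjusted p = 6.25e-12), and it was the only member called for the labelled share in each of the 4 pairs. Over all genes 2.08% and 2.05% were called lower in tagged cells with auxin and with vehicle, and 2.69% and 3.36% in parental cells with auxin and with vehicle. Its total reads meanwhile rose, over 75.003, 155 and 177 CPM in stressed and 91.3, 117 and 133 CPM in unstressed libraries. The lowest stressed value came from the library that stood apart, and the other stressed libraries began at 142.3 CPM, above all unstressed ones. ZNF292 ranged over 8.82%, 43.0% and 56.6% in stressed and 44.4%, 59.4% and 70.9% in unstressed libraries (-0.65 ± 0.16), the lowest being the library that stood apart, without which the change was -0.57 ± 0.15. ZNF621 ranged over 8.72%, 18.6% and 27.5% in stressed and 19.1%, 29.2% and 36.9% in unstressed libraries (-0.62 ± 0.13).

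Further members with a lower labelled share were ZNF696 (-0.53 ± 0.15), ZNF445 (-0.52 ± 0.15), ZNF639, ZNF335 and ZNF618 (-0.48 each), ZNF480 (-0.47 ± 0.16), ZNF598 (-0.46 ± 0.09), ZNF791 (-0.45 ± 0.14), ZNF507 (-0.44 ± 0.15) and ZNF346 (-0.43 ± 0.14). ZNF598 ranged over 19.1%, 23.8% and 35.5% in stressed and 27.0%, 35.5% and 44.7% in unstressed libraries. ZNF706, a small zinc-finger protein that in mouse stem cells counters self-renewal, went the other way in this relative measure (0.48 ± 0.12, edgeR adjusted p = 0.000611). Its labelled percentage ranged over 12.1%, 17.0% and 22.2% in stressed and 7.93%, 14.5% and 23.2% in unstressed libraries, which overlapped widely.

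Set side by side, 5 members (ZNF195, ZNF3, ZNF621, ZNF770 and ZNF791) rose in total reads and fell in labelled share without a call in labelled reads, and 5 (ZNF346, ZNF480, ZNF503, ZNF618 and ZNF696) fell in all 3 readings. ZNF165, ZNF281, ZNF410, ZNF430, ZNF526 and ZNF655 rose in total and in labelled reads with no call in the share. A fall in labelled share alone was called for 10 members, and 29 of the 70 had no call in any reading.

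**Figure D4:**
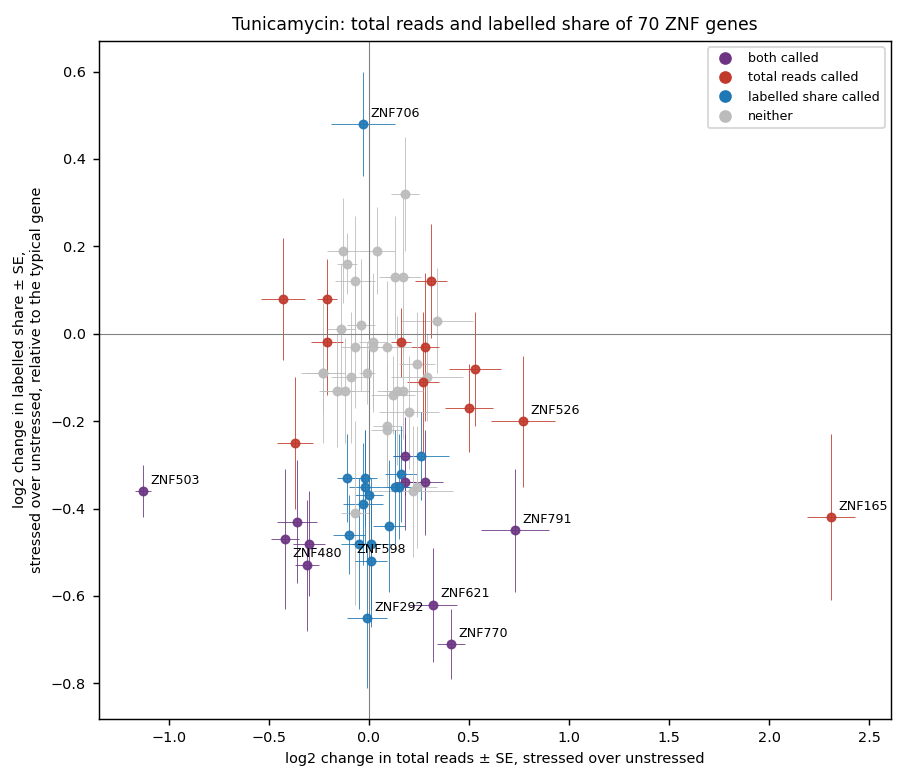
Log2 change in total reads (horizontal axis) and in labelled share relative to the typical gene (vertical axis), stressed over unstressed and averaged over the 4 pairs, for 70 ZNF genes with standard errors, coloured by which change was called. Most called shares lie below 0, ZNF770 lowest at -0.71, on either side of 0 in total reads, and ZNF706 is the single called member above 0.

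Taken singly, the pairs differed in how many members were called in total reads. In tagged cells with auxin 2 were called (1 higher, 1 lower), against 4.15% of all genes (3.02% higher, 1.13% lower), and in tagged cells with vehicle 4 (1 higher, 3 lower), against 4.03% (2.92% higher, 1.11% lower). In parental cells with auxin 14 were called (12 higher, 2 lower), against 10.5% (7.26% higher, 3.19% lower), and in parental cells with vehicle 11 (3 higher, 8 lower), against 12.9% (7.65% higher, 5.26% lower). Without the library that stood apart these counts were 11 and 11 in tagged cells with auxin and with vehicle, 14 (9 higher, 5 lower) in parental cells with auxin and 21 in parental cells with vehicle. The called members besides ZNF165 and ZNF503 were ZNF696 and ZNF480 in tagged cells with vehicle, ZNF791, ZNF526, ZNF787, ZNF587, ZNF655, ZNF430, ZNF714, ZNF621, ZNF106, ZNF622, ZNF48 and ZNF480 in parental cells with auxin, and ZNF770, ZNF410, ZNF148, ZNF316, ZNF618, ZNF689, ZNF142, ZNF346 and ZNF581 in parental cells with vehicle. In parental cells with auxin 7 of the 14 calls were kept without the library that stood apart (ZNF165, ZNF503, ZNF526, ZNF791, ZNF655, ZNF622 and ZNF480) and 7 were lost. Among those lost, ZNF787 changed by 1.30 ± 0.37 with it and 0.19 ± 0.13 without it, ZNF587 by 1.22 ± 0.36 and 0.16 ± 0.13, ZNF714 by 0.90 ± 0.29 and 0.15 ± 0.14, and ZNF106 by 0.68 ± 0.19 and 0.28 ± 0.11. ZNF430 changed by 1.00 ± 0.27 and 0.47 ± 0.16, ZNF621 by 0.88 ± 0.24 and 0.38 ± 0.14, and ZNF48 by 0.43 ± 0.14 and 0.34 ± 0.14. ZNF12, ZNF131, ZNF22, ZNF451, ZNF581, ZNF618 and ZNF770 were called without that library. ZNF587 shares near-identical sequence with ZNF814, whose last exon lies opposite, so its reads are uncertain. In parental cells with vehicle 5, 4 or 6 members were called without replicate 1 or 2 of the unstressed or replicate 2 of the stressed wells, in parental cells with auxin 8 without replicate 1 or 3 of the unstressed wells, and in tagged cells with vehicle 2 without replicate 2 or 3 of the unstressed or replicate 3 of the stressed wells. An axis of variation within groups, drawn from 7114 genes, held 40.6% of the within-group variance. Across the members the stress change correlated with the weight on it at r = 0.50 in parental cells with vehicle, -0.30 in parental cells with auxin, 0.06 in tagged cells with vehicle and -0.08 in tagged cells with auxin, and its part in the calls was not tested.

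The stress change itself was not shown to differ between the lines or with auxin. For stress in tagged minus parental cells 0 of 71 members were called by edgeR, with 2 at an unadjusted p under 0.05 and 0 by DESeq2. For stress with minus without auxin in tagged cells 0 were called, with 0 at an unadjusted p under 0.05 and 0 by DESeq2. The median standard errors of these differences were 0.17 and 0.24 on the log2 scale. Over all genes 0% were called in each. Without the library that stood apart 0 members were called by edgeR in each, with 13 and 2 at an unadjusted p under 0.05, in the same order.

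Auxin, averaged over both stress states, changed 10 of 71 members in tagged cells in total reads, 3 higher and 7 lower, against 13.6% of all genes (8.49% higher, 5.11% lower). In parental cells, which have no degron, only ZNF503 was called, against 1.18% of all genes. ZNF706 showed the largest change in tagged cells. It stood at 98.3, 158, 127 and 108 CPM with auxin and 51.1, 70.9, 80.3 and 38.9 CPM with vehicle in unstressed tagged cells, and at 100.3, 92.3, 115 and 99.5 CPM with auxin and 62.0, 55.5, 67.0 and 33.3 CPM with vehicle in stressed tagged cells. The auxin wells lay above the vehicle wells in each state, and the log2 change was 0.97 ± 0.23 (edgeR adjusted p = 0.00977). In parental cells its change was 0.37 ± 0.23 and not called.

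ZNF346 stood at 38.5, 24.5, 22.6 and 35.8 CPM with auxin and 49.3, 40.2, 46.0 and 50.7 CPM with vehicle in unstressed tagged cells, and at 17.7, 34.0, 25.9 and 26.9 CPM with auxin and 38.6, 40.6, 38.2 and 36.02 CPM with vehicle in stressed tagged cells. The wells did not overlap in either state (log2 change -0.58 ± 0.15, edgeR adjusted p = 0.0122). ZNF428 stood at 194, 116, 160.4 and 155 CPM with auxin and 269, 229, 208 and 263 CPM with vehicle in unstressed tagged cells, and at 207, 199, 187 and 192 CPM with auxin and 236, 297, 208 and 293 CPM with vehicle in stressed tagged cells (-0.52 ± 0.14). Here too the auxin wells were all lower. ZNF276 fell by 0.45 ± 0.08, ZNF618 by 0.42 ± 0.11, ZNF689 by 0.41 ± 0.13, and ZNF3 and ZNF48 by 0.29 each. The last exon of ZNF276 overlaps FANCA, and that of ZNF428 overlaps SRRM5, on the opposite strand.

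ZNF503 and ZNF165 also rose with auxin in tagged cells, by 0.26 ± 0.06 and 0.58 ± 0.18 on the log2 scale. ZNF503 rose in parental cells too, by 0.39 ± 0.06 (edgeR adjusted p = 0.000891). It stood at 331, 332, 339.7 and 333 CPM with auxin and 226, 223, 244 and 252 CPM with vehicle in unstressed parental cells, which did not overlap, and at 117, 148, 146 and 154 CPM with auxin and 119, 118, 123 and 112 CPM with vehicle in stressed parental cells, which overlapped through replicate 1, the library that stood apart. The other auxin wells began at 146 CPM, above all vehicle wells, and without that library the change averaged over both states was 0.42 ± 0.05. In unstressed parental cells alone, auxin called 4 members, ZNF503 and ZNF165 higher and ZNF622 and ZNF142 lower, against 7.2% of all genes (4.85% higher, 2.35% lower), and in unstressed tagged cells ZNF503 alone, against 0.679%. In stressed cells 0 members were called in either line by edgeR, against 0.0179% of all genes in each, with 20 in parental and 7 in tagged cells at an unadjusted p under 0.05. Without the library that stood apart the counts in unstressed cells were 21 in parental and 18 in tagged cells, and in stressed cells 0 and 2. The members at an unadjusted edgeR p under 0.05 in stressed cells were then 4 in parental and 14 in tagged cells, so their order depended on that library.

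**Figure D5:**
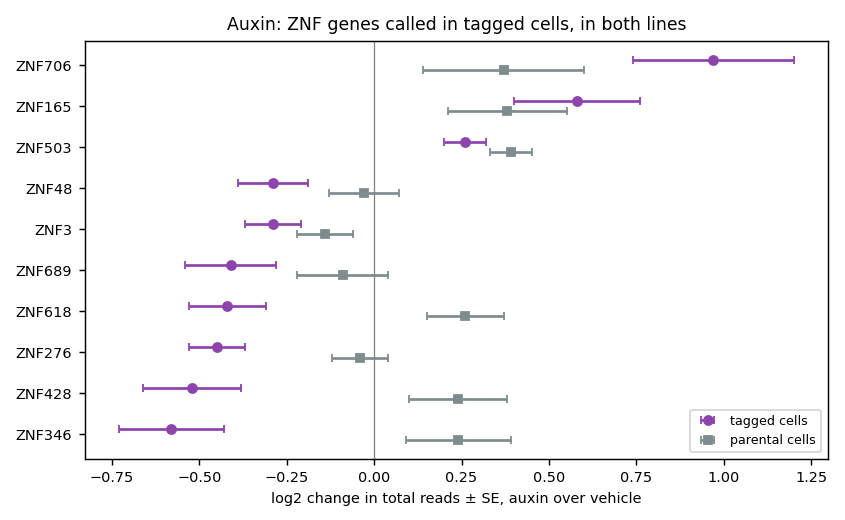
Log2 change in total reads with auxin over vehicle (horizontal axis, ± SE), averaged over unstressed and stressed wells, of the 10 ZNF genes called in tagged cells, in tagged cells (circles) and parental cells (squares). ZNF503 lies right of 0 in both lines, whereas ZNF346, ZNF428 and ZNF618 lie left of 0 in tagged cells and right of 0 in parental cells.

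The auxin counts depended on the libraries in the fit. In tagged cells 28 members (8 higher, 20 lower) were called without the library that stood apart, although it is not part of that comparison, and 5 or 6 without replicate 2 of unstressed or replicate 3 of stressed auxin-treated tagged cells. The shares of all genes given above came from the fit with all libraries, so they are no background for these counts. In parental cells 6 were called without it (3 higher, 3 lower). DESeq2 called 14 in tagged cells, 6 higher and 8 lower. Across the 71 members the auxin change in tagged cells correlated with the weight on the within-group axis at r = 0.81, and at 0.89 over the 7114 genes that drew the axis. The part of that axis in the auxin calls was not tested. In labelled reads ZNF706 rose (0.62 ± 0.18) and ZNF689, ZNF768 and ZNF346 fell in tagged cells, 4 of 70 against 3.63% of all genes (2.03% higher, 1.6% lower), and ZNF503 rose in parental cells (0.38 ± 0.09), 1 of 70 against 0.178%. In labelled share 0 members were called in either line by edgeR, against 0.256% of all genes in tagged and 0.0223% in parental cells, with 5 in tagged and 4 in parental cells at an unadjusted p under 0.05.

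Whether auxin acted differently in the lines was tested directly. For auxin in tagged minus parental cells 0 of 71 members were called by edgeR, against 0.340% of all genes, with 17 at an unadjusted p under 0.05 and 6 called by DESeq2. ZNF618 came closest (-0.68 ± 0.16, edgeR adjusted p = 0.0523), followed by ZNF428 (-0.75 ± 0.19, 0.0793) and ZNF346 (-0.82 ± 0.21, 0.0796). Without the library that stood apart 7 were called, 1 higher and 6 lower: ZNF207 (0.27 ± 0.07), ZNF618 (-0.64 ± 0.14), ZNF428 (-0.59 ± 0.14), ZNF346 (-0.71 ± 0.17), ZNF276 (-0.43 ± 0.11), ZNF587 (-0.51 ± 0.13) and ZNF480 (-0.52 ± 0.14). In parental cells, leaving out replicate 2 of the unstressed vehicle wells gave 4 calls, replicate 4 of the stressed auxin wells 5, replicate 3 of the unstressed auxin wells 2 and replicate 3 of the stressed vehicle wells 1. In tagged cells, replicate 1 of the unstressed auxin wells or replicate 2 of the unstressed vehicle wells left out gave 1. For ZNF706 the difference was 0.60 ± 0.33, with a 95% interval from -0.04 to 1.24, and for ZNF503 -0.13 ± 0.08, from -0.29 to 0.04. Between the lines themselves, averaged over the 4 pairs, 0 members were called, against 3.39% of all genes, with 9 at an unadjusted p under 0.05 and 1 by DESeq2. ZNF580 came closest at -0.32 ± 0.10. Leaving out replicate 1 or 2 of stressed, auxin-treated parental cells gave 1 call and leaving out replicate 4 gave 2.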

How the data were processed

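SLAM-seq from 3′ ends was measured in 32 libraries, and the labels put 4 into each of 8 groups. The authors deposited counts for each transcript entry, per the file headers: reads, reads with T-to-C conversions, covered T positions and conversions. The submitters' processing notes name hg38. The aligner settings, the annotation and the strand setting are not stated by the labels or headers. In 749 genes the counts were identical to those of another gene, and these were left out. Identifiers were matched to symbols with a RefSeq table (GRCh38.p14): 40006 of 40767 curated, 6326 of 33066 predicted and 0 of 21749 other identifiers matched. Unmatched entries held 36.9% to 43.5% of a library's counts and entered neither the library sizes nor the tests. Other columns were not used, and 0 columns belonged to other samples.

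Total and labelled reads went through edgeR 4.0.16, run in R 4.3.3 (scaling by TMM, filterByExpr, 1 coefficient per group, robust quasi-likelihood test), with Benjamini-Hochberg adjustment over all genes tested: 11186 for total reads, 8980 for labelled reads and share. ZNF185 did not pass the filter for labelled reads, and all 71 members passed for total reads. The labelled share was tested on labelled and other reads as paired columns with a term per library, so a change is relative to the typical gene. CPM are on TMM-scaled library sizes, ± is SD over libraries for levels and SE for log2 changes, and intervals are 95%. Checked on simulated data of the stress average, the test recovered 100% of log2 changes of 0.5 and 96% of -0.5 in total reads, over 11186 genes. In labelled share it recovered 76% and 80%, over 8980 genes. The simulated counts had the same spread in all genes, no axis of variation within groups and no library of unlike composition. The changed genes had a mean of at least 100 reads, for the share at least 100 labelled reads, which most members did not reach. Recovery for the members themselves was not tested. DESeq2 1.42.0 and limma 3.58.1 (log2 ratios with a pseudocount of 0.5) were alternatives, as were other scalings, filters and libraries. The classes of domain came from translated GENCODE v29 coding sequences, since no protein table was held, a departure from the design. All 48 pairs of replicates differed by more than counting noise (smallest chi-square 2.32 times its degrees of freedom). The genes named were, in each comparison, members past the threshold in order of size, up to 12 each way, the 3 highest in level, the 5 highest and lowest in labelled share, the 3 genes on either side of the limit of 100 reads, and the listed roles. ZNF787 in the labelled shares, the difference between the lines in ZNF580, and the differences in ZNF618, ZNF428 and ZNF346 were chosen after their values were seen. The members and lists were chosen with earlier results of these data known.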

Additional observations from a re-analysis of the deposited data

Results flagged for a closer look

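In 120 groups of 4 libraries behind the values given, 10 had a single library far from the other 3 by Dixon's criterion, where chance flags about 1 in 20. Of these, 5 were the shallow library of stressed, auxin-treated parental cells. There ZNF526 stood at 167.8 CPM against 31.8 to 40.2 in the other libraries of the group, ZNF791 at 250.4 CPM against 41.9 to 56.0, ZNF430 at 180.5 CPM against 53.2 to 55.8 and ZNF581 at 100.4 CPM against 31.3 to 31.9. Its labelled share of the summed members was 17.4% against 22.9% to 23.9%. In the same group, replicate 3 had 13.95% labelled reads of ZNF770 against 16.95% to 17.4%. In the other groups, the lowest library of stressed, vehicle-treated tagged cells had 104.9 CPM of ZNF503 against 119.9 to 121.0, and another library of that group had 8.72% labelled reads of ZNF621 against 18.2% to 19.7%. In unstressed, auxin-treated parental cells the lowest library had 20.8% labelled reads of ZNF621 against 28.6% to 30.1%. In stressed, auxin-treated tagged cells the highest library had 0.449% of its reads in the members against 0.433% to 0.435%.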

How the results depend on the processing

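Of the 23 members called with stress in total reads, 21 stayed called under every alternative run, all but ZNF316 and ZNF621, as did 13 of 22 in labelled reads, 8 of 27 in labelled share and 5 of 10 with auxin in tagged cells. Counts follow in the order stress averaged (total, labelled, share), stress in parental cells with vehicle and with auxin, in tagged cells with vehicle and with auxin, auxin in tagged and in parental cells, auxin in tagged minus parental cells, and tagged minus parental cells. Leaving out single libraries gave ranges of 21 to 32, 20 to 27, 23 to 29, 4 to 21, 8 to 18, 2 to 11, 2 to 11, 5 to 28, 1 to 6, 0 to 7 and 0 to 2, and 0 to 0 for both tests of the stress change between lines or with auxin. The omission of the shallow library in comparisons that do not use it was chosen after seeing the data. A limit of 50 mean reads (132 genes) moved the counts for stress in total and labelled reads to 40 and 35, stress in tagged cells with vehicle and with auxin to 7 and 6, auxin in tagged cells to 17 and the lines to 2, and a limit of 200 (26 genes) moved stress to 10, 9 and 12, the 4 pairs to 5, 7, 1 and 1 and auxin in tagged cells to 6, as fewer or more genes were tested. With the axis of within-group variation added as a covariate, the counts were 24 for stress in parental cells with vehicle, 11 and 12 in tagged cells with vehicle and with auxin, 25 and 11 for auxin in tagged and parental cells, 9 for their difference, 3 for the lines and 1 for stress in tagged minus parental cells. With only the groups compared in the fit, stress in parental cells with auxin had 2, stress in tagged cells with vehicle and with auxin 9 and 10, and auxin in tagged and parental cells 30 and 0. DESeq2 gave 5 for stress in tagged cells with auxin, 3 for auxin in parental cells, 6 for the auxin difference and 1 for the lines, and the longest region per gene gave 1 for the auxin difference. Labelled reads scaled by total reads gave 40, the share without centring 53 and limma on conversions per T 10, where ZNF12 (0.038) and ZNF3 (0.032) reversed. The cause of these moves was not tested. Replicate numbers share no stated plate or day: the deviations of same-numbered libraries correlated at -0.54 to 0.63 over 8 pairs of groups, in none of which all 4 were over 0.1, and 12 of 32 libraries correlated best with their own number. With a replicate block the counts were 23, 21, 27, 11, 12, 3, 2, 12, 1, 0 and 0. Depth limits the labelled share: the members held 2329 to 7600 labelled reads per library, and 1018 in the shallow library.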
